A study of Mus musculus with 11 samples.

Results

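The cells described here are the control lines of an experiment on NSC34, a mouse hybrid line made by fusing neuroblastoma cells with cells of embryonic spinal cord and widely used as a stand-in for motor neurons. The 7 control arrays were chosen by their titles from the 11 arrays of the series, and the knockdown arrays were not used. There were 4 arrays of cells with a short hairpin RNA against GFP (shGFP, replicates 1, 2, 3 and 5) and 3 of cells with a hairpin against Renilla luciferase (shLuciferase, replicates 1, 2 and 4). Mouse cells have neither target. Both groups carried the hairpin in the pSUPERIOR vector, introduced by lipofection, and came from stable clones selected with puromycin, so no untransfected NSC34 cells enter the values. How many clones or cultures lie behind the arrays of a group is not given, so the p-values reflect how far these arrays differ from each other, and that spread may be technical. Labelled cDNA from total RNA was hybridised to Affymetrix whole-transcript exon arrays.

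A gene's value on an array was the mean log2 signal of all probe sets annotated to that gene alone. Its control level was the mean of the shGFP mean and the shLuciferase mean, so that each line counted equally. This gave levels for 15803 genes, each from a median of 9 probe sets. No detection calls were used. The olfactory receptor genes, which are silent in most cells outside the nose, served as a measured floor. The 830 of them had a median level of 3.71, and the 95th percentile of their levels, 4.82, is called the reference below. A level under the reference reads like a silent gene, which does not show that the gene is off, because probe sets differ in how strongly they bind. For the same reason a level says only roughly which of 2 genes has more RNA. Levels and ranks are given as descriptions, without a test.

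Spinal motor neurons release acetylcholine. They make it with choline acetyltransferase (Chat), load it into vesicles with the transporter Slc18a3 and take choline back up with Slc5a7. Their identity is set by homeodomain factors such as Isl1, Isl2, Mnx1 and Lhx3, and their axons are filled with neurofilaments. Neuroblastoma arises from the sympathetic nerve lineage, whose own set of factors includes Phox2a, Hand2 and Gata2, and whose transmitter is noradrenaline. A motor neuron in the animal has left the cell cycle for good, whereas a cell line divides.

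The 7 arrays were close to each other. Array medians of gene levels ran from 6.37 to 6.45. Over genes, Pearson's r was 0.995 to 0.998 for the 9 pairs of arrays within a group and 0.991 to 0.995 for the 12 pairs across the groups. It was 0.995 between shLuciferase 4 and each of shLuciferase 1 and 2, and 0.998 between shLuciferase 1 and 2. A short code in the sample descriptions starts with P for shLuciferase 4 and with C for the other controls, and its meaning is not given. The median SD of a gene over the 7 arrays was 0.135. The reference computed on single arrays ran from 4.75 to 5.09.

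Of the 15803 genes, 10330 (65.4%) lay above the reference. Gene levels ran from 2.86 to 13.92 with a median of 6.40, and the distribution had a low peak where the olfactory receptor genes lay and a broad shoulder above it. On every one of the 7 arrays 9533 genes were above that array's own reference, and 5164 genes were above it on none.

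**Figure D1:**
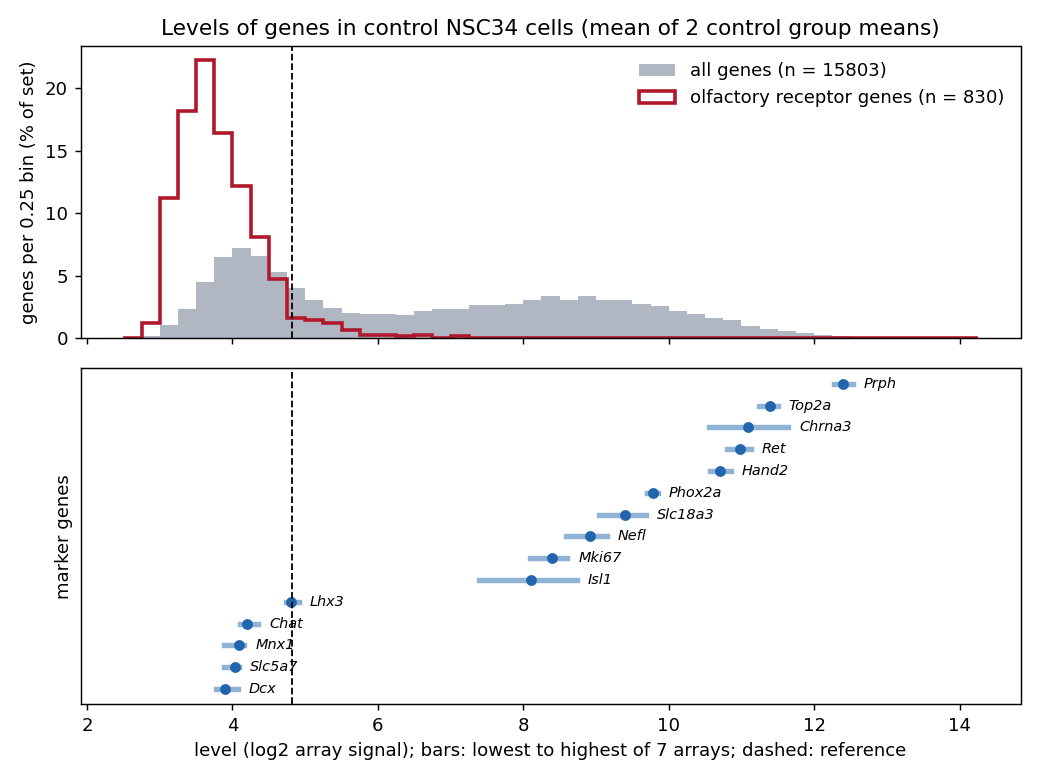
The upper panel shows the share of genes in each 0.25-wide bin of control level (log2 array signal) for all 15803 genes (grey) and the 830 olfactory receptor genes (red line), with the reference at 4.82 dashed. The lower panel places 15 marker genes on the same axis, with a dot at the control level and a bar from the lowest to the highest of the 7 arrays: Chat, Mnx1, Slc5a7 and Dcx lie left of the reference, Lhx3 on it, and Prph farthest right.

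Among the 4 marker genes set for these cells, 3 read clearly above the reference and 1, Chat, did not. The gene values of Chat were 4.36, 4.13, 4.21 and 4.25 in shGFP 1, 2, 3 and 5, and 4.22, 4.11 and 4.20 in shLuciferase 1, 2 and 4. All 7 values were below the reference of their own array, and the groups overlapped. The control level was 4.20, at the 20.4th percentile of all genes, meaning that 20.4% of genes read at or below it. Of its 19 probe sets 1 (6.80) was above 5.31, the 95th percentile of probe sets of olfactory receptor genes. By this measure the defining enzyme of cholinergic neurons was not above the reading of silent genes in either control line.

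Isl1, a LIM homeodomain factor of both motor neurons and sympathetic neurons, had values of 8.57, 8.61, 8.74 and 8.73 in the 4 shGFP arrays and 7.39, 7.74 and 7.52 in the 3 shLuciferase arrays. Every shGFP array was above every shLuciferase array. Its control level was 8.11 (66.9th percentile), and all 10 of its probe sets were above the probe set reference. Nefl, the light neurofilament subunit, had values of 8.59, 8.80, 9.09 and 8.84 in shGFP and 9.15, 8.94 and 8.91 in shLuciferase, with a level of 8.92 (77.2nd percentile). These groups overlapped. Mki67, the antigen of the Ki-67 proliferation stain, had values of 8.09, 8.22, 8.16 and 8.52 in shGFP and 8.57, 8.42 and 8.61 in shLuciferase, with a level of 8.39 (70.5th percentile). Its 3 probe sets read 5.65, 9.68 and 9.85, so its gene mean was pulled down by 1 of them. Isl1, Nefl and Mki67 were thus above the reference on all 7 arrays and Chat on none.

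Promoter sequences of genes that bear on these readings are shown for context, as the 150 bases before the transcription start in RefSeq's annotation of the mouse assembly GRCm38.p6, 5′ to 3′ along the gene's strand. The first 4 are proliferation genes (Plk1 and Cdk1, both mitotic kinases, were picked after their values were seen), next come the highest neuronal filament gene and Isl1, and the last 2 are neighbours with opposite readings. Capitals mark matches on either strand to any of 4 motifs. CCAAT (or its complement ATTGG) and, beside it, the element TTTGAA (or its complement TTCAAA) are known from many promoters that are active late in the cell cycle. The TATA box was searched as TATAAA (or its complement TTTATA), and the GC box was searched as GGGCGG (or its complement CCGCCC). Neighbouring matches could overlap. The promoters are on chr7:135716380-135716529 (minus strand, Mki67), chr11:99024190-99024339 (minus, Top2a), chr7:122159285-122159434 (plus, Plk1), chr10:69352913-69353062 (minus, Cdk1), chr15:99055024-99055173 (plus, Prph), chr13:116309689-116309838 (minus, Isl1), chr14:32465910-32466059 (minus, Chat) and chr14:32464851-32465000 (minus, Slc18a3).
Mki67: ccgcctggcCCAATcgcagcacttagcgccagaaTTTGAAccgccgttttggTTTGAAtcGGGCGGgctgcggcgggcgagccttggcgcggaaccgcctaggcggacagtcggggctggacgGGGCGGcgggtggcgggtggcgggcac
Top2a: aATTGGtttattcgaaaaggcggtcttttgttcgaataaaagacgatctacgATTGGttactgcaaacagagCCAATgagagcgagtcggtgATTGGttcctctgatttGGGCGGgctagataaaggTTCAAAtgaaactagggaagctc
Plk1: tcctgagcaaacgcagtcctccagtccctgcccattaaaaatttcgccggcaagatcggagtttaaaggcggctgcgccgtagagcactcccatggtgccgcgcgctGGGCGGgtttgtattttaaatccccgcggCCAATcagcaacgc
Cdk1: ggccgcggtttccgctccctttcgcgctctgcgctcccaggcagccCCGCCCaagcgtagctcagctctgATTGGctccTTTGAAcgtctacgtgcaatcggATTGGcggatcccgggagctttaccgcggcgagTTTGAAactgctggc
Prph: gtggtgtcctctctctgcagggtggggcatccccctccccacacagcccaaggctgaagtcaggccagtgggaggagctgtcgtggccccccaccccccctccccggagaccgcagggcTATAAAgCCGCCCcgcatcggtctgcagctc
Isl1: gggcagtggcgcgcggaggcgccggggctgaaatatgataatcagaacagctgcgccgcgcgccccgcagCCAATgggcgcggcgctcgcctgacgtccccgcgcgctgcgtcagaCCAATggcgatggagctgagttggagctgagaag
Chat: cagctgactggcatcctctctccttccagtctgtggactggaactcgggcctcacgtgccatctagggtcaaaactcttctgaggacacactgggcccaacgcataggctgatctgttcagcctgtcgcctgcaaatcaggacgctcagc
Slc18a3: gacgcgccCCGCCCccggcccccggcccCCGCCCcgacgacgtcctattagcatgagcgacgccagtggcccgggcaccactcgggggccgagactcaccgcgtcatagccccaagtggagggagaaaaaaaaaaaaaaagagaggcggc

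Mki67 and Cdk1 each held CCAAT and 2 matches to TTTGAA in these windows, and Top2a held 4 matches to CCAAT and 1 to TTTGAA. Plk1 held 1 match to CCAAT and none to TTTGAA. Prph held a TATAAA match, Isl1 held 2 CCAAT matches and no TTTGAA, and Chat held none of the 4 motifs. GGGCGG had 2 matches each in Mki67 and Slc18a3, 1 each in Top2a, Plk1, Cdk1 and Prph, and none in Isl1. Slc18a3 held none of the other motifs. Over 27025 promoters of the RefSeq table, the 250 bases before the start held CCAAT in 34.5%, TTTGAA in 16.3%, both in 5.73%, TATAAA in 13.0% and GGGCGG in 32.9%. Shares over the proliferation and pan-neuronal lists are not given. Of their measured members 77.6% and 74.4% matched a promoter by symbol, against 69.5% of all measured genes. The 4 proliferation promoters shown do not stand for their list. Nefl was not matched. A match is a string of letters and shows no binding.

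Proliferation genes were the list with the highest median among the cell type and cell state lists. All 49 measured genes of the 53 listed were above the reference, against 65.4% of all genes. Their median level was 10.23 (91.7th percentile), against 6.40 for all genes, and 17 of them were among the 5% highest genes. Cyclin D1 (Ccnd1) stood at 12.31 and its partner kinase Cdk4 at 12.27, both in the 100 highest genes. Cyclin A2 (Ccna2), which drives S phase and entry into mitosis, followed at 11.81. Rrm1, the large subunit of ribonucleotide reductase, read 11.59, and the mitotic ubiquitin-conjugating enzyme Ube2c 11.33. The replication helicase subunit Mcm3 stood at 11.06 and the spindle checkpoint kinase Bub1 at 11.03.

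Top2a, topoisomerase II alpha, which untangles replicated chromosomes, had values of 11.24, 11.38, 11.43 and 11.50 in shGFP and 11.41, 11.38 and 11.39 in shLuciferase. The shLuciferase values lay inside the shGFP range. The lowest members were Ccnd2 (5.59), another D-type cyclin, the replication licensing factor Cdc6 (7.10), and the phosphatases Cdc25c and Cdc25b. In bulk RNA fewer cells of a kind and less RNA per cell cannot be told apart, which holds for every level given here.

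All 14 measured members of the cell cycle exit list, which holds kinase inhibitors, Rb family genes and genes of the p53 response, were above the reference, against 65.4% of all genes, with a median level of 8.56 (72.7th percentile). The antiproliferative gene Btg1 read 10.54 and Mdm2, which holds p53 in check and so acts the other way, 10.26. The kinase inhibitors Cdkn2c (10.09), Cdkn1a (9.94) and Cdkn1b (9.71) came next. Cdkn2b, at 5.09, was the lowest.

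The neuronal genes common to most neurons were also high. Of 43 measured pan-neuronal genes, 39 (90.7%) were above the reference, against 65.4% of all genes. The median level was 9.40 (83.2nd percentile), and 11 were among the 5% highest. The highest were proteins of the growing axon's cytoskeleton. Map1b, a microtubule-associated protein listed under its older symbol Mtap1b, stood at 12.29, the collapsin response mediator Dpysl3 at 12.13, and the tubulin-binding stathmins Stmn3 and Stmn2 at 12.07 and 11.96. The release machinery followed, with the SNARE protein Snap25 at 11.66, the calcium sensor Syt1 at 11.35 and the granule protein Scg3 at 11.30. The 4 members not above the reference were Dcx (3.90), Vsnl1 (4.11), Snhg11 and Thy1 (4.47). Dcx, doublecortin, is a microtubule protein of migrating young neurons. Its 7 array values ran from 3.77 to 4.08, and 1 of its 11 probe sets was above the probe set reference.

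Among filaments, Prph, the peripherin of peripheral and motor neurons, was the 28th highest gene of all. Its values were 12.44, 12.33, 12.28 and 12.27 in shGFP and 12.53, 12.50 and 12.34 in shLuciferase. All 7 values were thus close to the top of the array's range, and the groups overlapped. Internexin (Ina) stood at 11.14, Nefh at 9.56, Nefl at 8.92 and Nefm at 8.78. Nestin (Nes), the filament of neural progenitors, was the lowest of the 6, at 5.68.

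**Figure D2:**
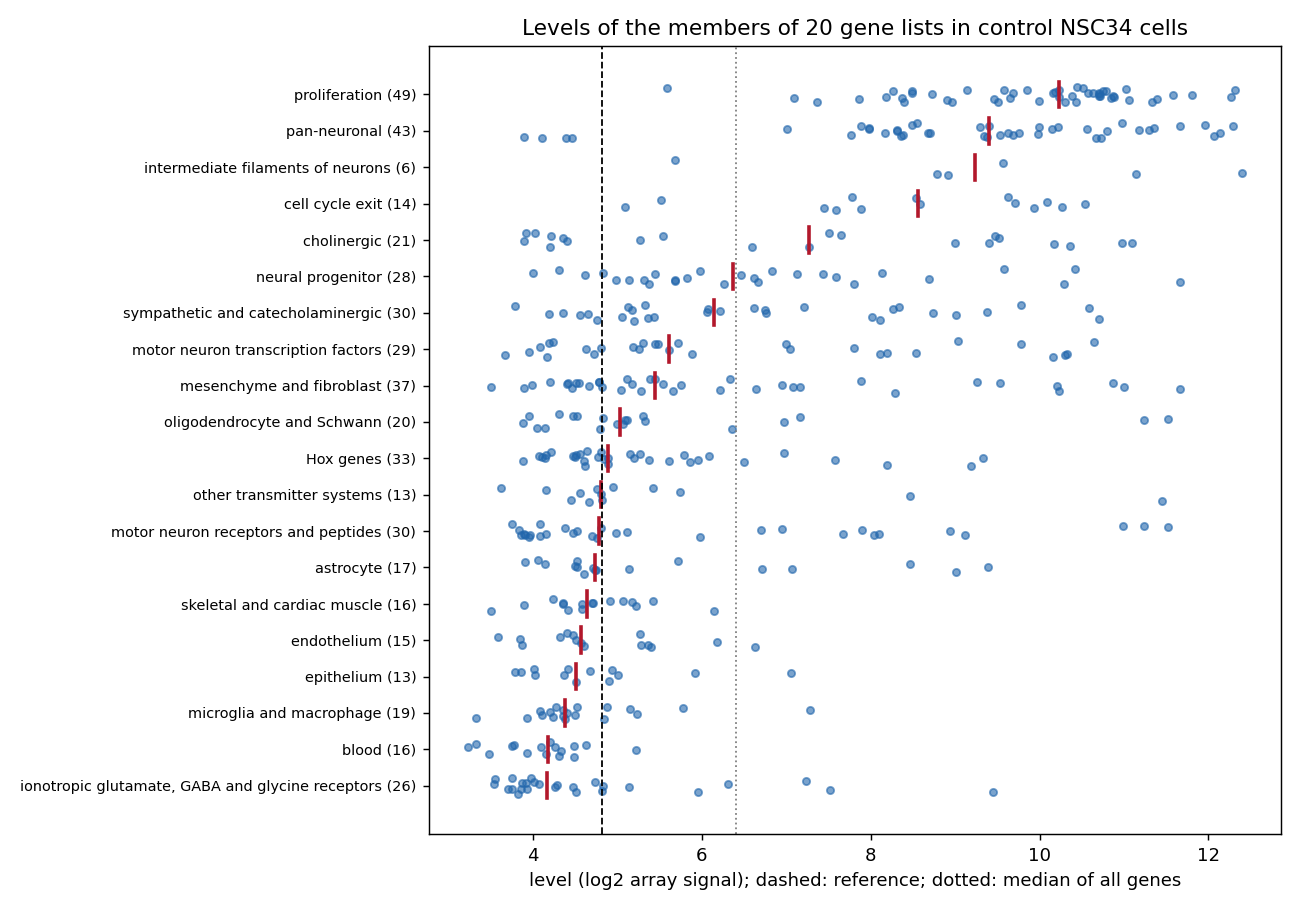
Control levels (log2 array signal, horizontal axis) of every measured member of 20 gene lists, 1 blue dot per gene, with the list median as a red bar and the number of measured members after each name. The dashed line is the reference at 4.82 and the dotted line the median of all genes at 6.40: the proliferation (10.23) and pan-neuronal (9.40) medians lie far to the right, and the blood (4.18) and ionotropic receptor (4.16) medians left of the reference.

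The cholinergic list was split. Of 21 measured genes 14 were above the reference, a share of 66.7% against 65.4% of all genes, and the median level was 7.27 (57.8th percentile). The 2 proteins that make a neuron cholinergic besides the vesicle transporter were below it: Chat, described above, and the choline transporter Slc5a7. Slc5a7 had values of 4.01, 3.88, 3.96 and 4.10 in shGFP and 4.07, 4.08 and 4.05 in shLuciferase, all below their array's reference. The vesicular acetylcholine transporter Slc18a3, on a single probe set, had values of 9.18, 9.20, 9.24 and 9.04 in shGFP and 9.60, 9.58 and 9.69 in shLuciferase, a level of 9.40 (83.2nd percentile). All shLuciferase values were above all shGFP values. Slc18a3 lies within the Chat locus, and in the RefSeq table the 2 starts are 1059 bases apart. Neighbours on the chromosome thus read 20.4% and 83.2% of the way up the ranking, the second from 1 probe set only.

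Several receptors for acetylcholine were in the upper part of the ranking. Chrna3, the ganglionic nicotinic subunit, had values of 10.56, 10.76, 10.80 and 10.78 in shGFP and 11.41, 11.32 and 11.65 in shLuciferase, and its level of 11.09 was at the 97.3rd percentile. The groups did not overlap. Slc10a4, a vesicle membrane protein of cholinergic and monoaminergic neurons, stood at 10.97, and Acly, the source of cytosolic acetyl-CoA, at 10.36. The muscarinic receptor Chrm4 stood at 10.17, the nicotinic subunit Chrna7 at 9.52, and butyrylcholinesterase (Bche) at 9.47. Acetylcholinesterase (Ache), which ends the signal and was named after its values were seen, stood at 7.65. The muscarinic receptors Chrm2 (3.92) and Chrm3 (3.89) were the lowest of the list.

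Of 29 measured motor neuron transcription factors, 20 were above the reference, a share of 69.0% that is near the 65.4% of all genes. The median level was 5.61 (43.9th percentile), below the median of all genes. Mnx1, the HB9 factor by which spinal motor neurons are commonly marked, had values of 4.07, 4.16, 4.16 and 3.88 in shGFP and 4.13, 4.14 and 4.06 in shLuciferase. All 7 were below their array's reference. Lhx3, which partners Isl1 in early motor neurons, stood at 4.81, at the reference itself, and Isl2 at 6.99. These last 2 genes were picked after their values were seen. The highest members were the LIM-domain cofactor Ldb1 (10.65), the ETS factor Etv1 (10.32), the T-box factor Tbx20 (10.31) and Zeb2 (10.16). Neurod1 (3.96) and the retinoic acid enzyme Aldh1a2 (3.67) were at the bottom.

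The list of motor neuron receptors and peptides gave a similar split. It holds receptors for survival factors beside other genes such as Slit2, Agrn and Cdh8. Of its 30 measured members 14 (46.7%) were above the reference, fewer than the 65.4% of all genes, with a median level of 4.79 (34.2nd percentile). Cntfr, the receptor for ciliary neurotrophic factor, stood at 11.52. The p75 neurotrophin receptor Ngfr stood at 11.24 and Ret, the signalling receptor for glial cell line-derived factors, at 10.98. Gfra1, the co-receptor that brings that ligand to Ret, read 8.10. Cdh10, Sema3e, Cdh8 and Met were the lowest, with levels between 3.75 and 3.90.

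Some sympathetic lineage factors read high, while the noradrenaline enzymes did not. Of 30 measured genes 24 were above the reference, with a median level of 6.15 (48.1st percentile). The list as a whole thus lay near the middle of the ranking, and the lineage factors named here are among its highest members. Hand2, a basic helix-loop-helix factor of sympathetic neurons, had values of 10.75, 10.65, 10.58 and 10.56 in shGFP and 10.79, 10.86 and 10.65 in shLuciferase. The zinc finger factor Gata2 stood at 10.59 and the homeodomain factor Phox2a, shared with cranial motor neurons, at 9.78. Neuropeptide Y (Npy) read 9.38, Sox11 9.01, the LIM-only protein Lmo1 8.74 and Mycn, a driver of human neuroblastoma, 8.34. Th, tyrosine hydroxylase, the first enzyme of noradrenaline synthesis, stood at 5.19 and Dbh, the last, at 5.13. Th was named after its values were seen. The noradrenaline transporter Slc6a2 (4.20), the adrenaline enzyme Pnmt (4.36) and Maob (3.79) were below the reference.

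For other transmitters, 6 of 13 measured genes (46.2%) were above the reference, against 65.4% of all genes. The glycine transporter Slc6a9 read 11.46, the highest of the list by far, and glutamine synthetase (Glul) 8.46 on 1 probe set. The vesicular glutamate transporter Slc17a6 (3.63) and the GABA enzyme Gad2 (4.16) were at the floor. Ionotropic glutamate, GABA and glycine receptor genes were the lowest of the neuronal lists. Only 7 of 26 measured members (26.9%) were above the reference, and the median level was 4.16 (19.1st percentile). Gria2, the AMPA receptor subunit that limits calcium entry, stood apart at 9.44. Its values were 9.82, 9.07, 9.57 and 9.85 in shGFP and 9.31, 9.44 and 9.17 in shLuciferase, with overlapping groups. The kainate receptor subunits Grik4 (7.52) and Grik5 (7.23) followed, and the obligatory NMDA receptor subunit Grin1 was at 4.83.

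Neural progenitor genes lay in the middle of the ranking, with a median level of 6.37 (49.7th percentile). Above the reference were 25 of 28 measured members (89.3%), against 65.4% of all genes. Vimentin (Vim), a filament of progenitors and of mesenchyme alike, read 11.66. Id2, an inhibitor of basic helix-loop-helix factors, read 10.42, and the RNA-binding proteins Msi2 and Msi1 10.29 and 9.57. Sox9 stood at 8.69 and Pax6, a factor of the ventral spinal cord's progenitors, at 7.81. Neurog1, Pax3 and Fabp7 were the members below the reference.

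Hox genes, which record position along the body axis, gave 18 of 33 measured members (54.5%) above the reference, against 65.4% of all genes. The highest belonged to the HoxC cluster: Hoxc10 at 9.33, Hoxc9 at 9.18 and Hoxc6 at 8.19. Hoxd10 (7.58) and Hoxd13 (6.98) came next, and both differed between the control lines. Hoxa2, Hoxb2, Hoxc12 and Hoxa6 were the lowest.

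Several genes that define glial cells read at the floor. Of 17 astrocyte genes 7 (41.2%) were above the reference, against 65.4% of all genes, with a median level of 4.73 (33.1st percentile). The highest were Ndrg2 (9.39), the brain aldolase Aldoc (9.01) and Glul, whereas Aqp4 (4.52), Aldh1l1 (4.50) and Gfap (4.71), which define astrocytes, were below the reference. Of 20 oligodendrocyte and Schwann genes 12 (60%) were above it, with a median level of 5.03 (37.9th percentile). The peripheral myelin protein Pmp22 (11.53) and Ngfr, both found outside glia as well, were the highest. The myelin glycoprotein Mag (4.05) was below the reference, and myelin basic protein (Mbp) read 5.09. Of 19 microglia and macrophage genes 6 (31.6%) were above it, with Cd74, the invariant chain, at 7.28. The pan-leukocyte gene Ptprc (3.93) and Itgam (4.11) were below. Aqp4, Gfap and Mbp were named after their values were seen.

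The mesenchyme and fibroblast list held a few high genes among many low ones. Of 37 measured genes 25 were above the reference, a share of 67.6% that is near the 65.4% of all genes. The median level was 5.45 (42.4th percentile). Vim (11.66), the collagen receptor Ddr2 (10.99) and fibronectin (Fn1, 10.87) were among the 5% highest genes. They make up 8.1% of the list, against 5.0% of all genes, and rank 162, 506 and 610. The tropomyosin Tpm1 read 10.23 and Snai2, a factor of neural crest and mesenchyme, 10.20. The fibrillar collagen genes were far lower, with Col1a1 at 5.55 and Col3a1 at 4.79, both named after their values were seen, and Timp1 (3.90) and lumican (Lum, 3.51) were at the bottom.

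Markers of tissues that a neuronal line should lack read low as well. Above the reference were 5 of 13 epithelial genes, 6 of 15 endothelial genes, 6 of 16 muscle genes and 1 of 16 blood genes, against 65.4% of all genes. The medians of these 4 lists ran from 4.18 to 4.65. The highest single members were Cldn3 (7.06), Kdr (6.63), Acta1 (6.15) and Cd3e (5.23).

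The highest genes of all were of many kinds. Cox6c, a subunit of cytochrome c oxidase, was first at 13.92, but from 1 probe set. Pcbp2, an RNA-binding protein, had 12.92, Ndufa12 12.91 (1 probe set), beta-actin (Actb) 12.87 and the spliceosome protein Snrpb2 12.83. After them came the fatty acid desaturase Scd2 (12.76), the ATP synthase subunit Atp5d (12.74), metallothionein 2 (Mt2, 12.72), the poly(A)-binding protein Pabpc1 (12.72) and Grina (12.69). The SD of the 30 highest genes over the 7 arrays was between 0.0230 and 0.244. The list also held the proteasome subunit Psmb5 (12.68), the tubulin Tubb5 (12.66), the chaperone Hsp90ab1 (12.65) and the elongation factor Eef2 (12.49).

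The last 3 of the 30 highest were Prph, asparagine synthetase (Asns, 12.35) and Dkk1 (12.35), a secreted Wnt inhibitor. Dkk1 had values of 12.37, 12.32, 12.38 and 12.36 in shGFP and 12.28, 12.37 and 12.35 in shLuciferase, with overlapping groups. Among the 100 highest genes, 6 were subunits of the respiratory chain or ATP synthase, 3 were translation initiation factors and 5 were on the pan-neuronal or filament lists (Prph, Map1b, Dpysl3, Stmn3 and Stmn2).

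All 64 genes of the respiratory chain and ATP synthase were above the reference, against 65.4% of all genes, with a median level of 9.58 (85.4th percentile). The proteasome gave 34 of 35 with a median of 10.01. The 11 tubulins and 14 hnRNP proteins, which package nuclear RNA, were all above it, with medians of 9.95 and 9.78. Cytosolic ribosomal proteins, among the most abundant messages of any dividing cell, had a median of only 6.16 over 29 measured genes. The glycolytic enzyme Eno1 read 3.98 on 1 probe set, and the ribosomal protein Rplp0 6.90 on 2. Both genes are highly expressed in most dividing cells, so single levels from few probe sets are weak evidence of abundance. Hprt1, the purine salvage gene that the neuroblastoma parent line had lost the activity of, read 6.30, and its 9 probe sets ran from 5.49 to 7.08.

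The 2 control lines were then compared, because a control level that depends on the line is less certain as a baseline. With limma, 1476 of 15803 genes (9.34%) differed at an adjusted p under 0.05, 860 higher in shGFP (5.44%) and 616 lower (3.9%). Of these, 88 differed by at least 2-fold. The share was 13.6% among the 10330 genes above the reference and 1.37% among the others. The count depended on single arrays: it was 855 without shLuciferase 1, 880 without shLuciferase 2, 955 without shGFP 5 and 956 without shGFP 3. With the replicate number as a block it was 824, and 710 of those genes were among the 1476.

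Isl1 was 2.17-fold higher in shGFP than in shLuciferase (log2 difference 1.11, SE 0.0960, limma adjusted p = 6.8e-05). Its percentile was 58.7 at the lowest and 75.2 at the highest array, so the rank of this marker depended on the line taken as control. Of the other 3 set markers, none passed the threshold: the difference was 0.06 for Chat (SE 0.0799, limma adjusted p = 0.78), -0.17 for Nefl (SE 0.115, limma adjusted p = 0.49) and -0.29 for Mki67 (SE 0.107, limma adjusted p = 0.14).

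**Figure D3:**
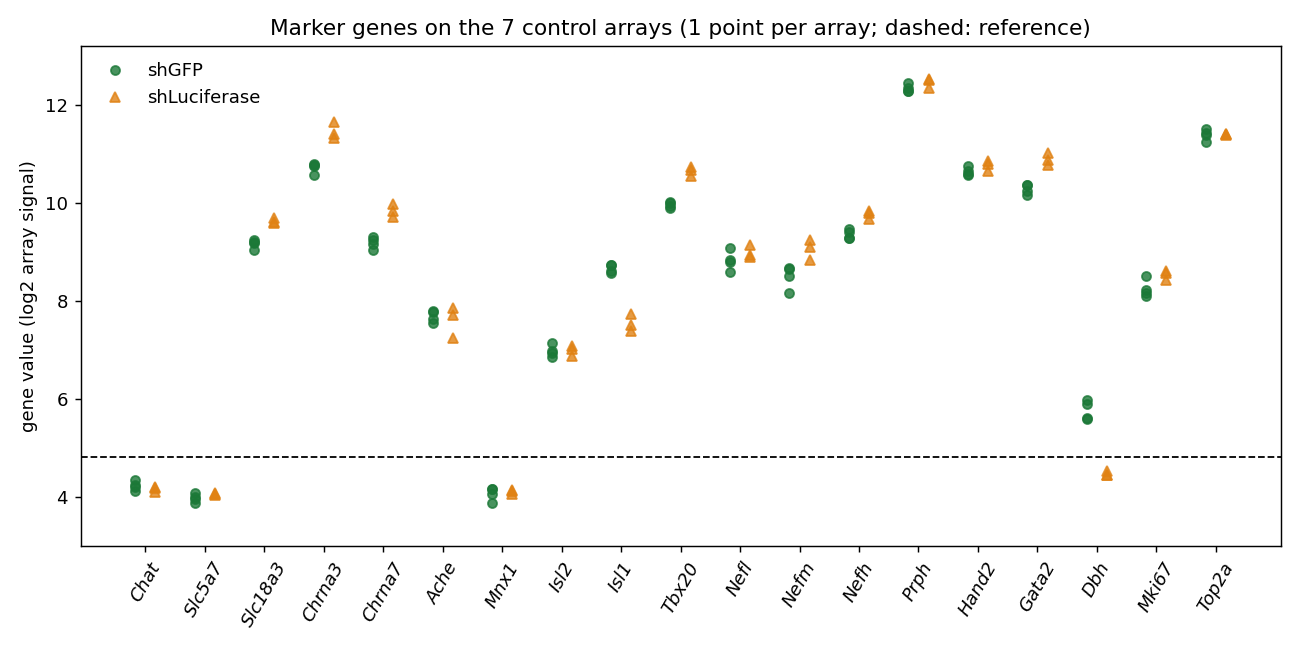
Gene values (log2 array signal, vertical axis) of 19 marker genes on the 7 control arrays, with green circles for the 4 shGFP and orange triangles for the 3 shLuciferase arrays and the reference at 4.82 dashed. Chat, Slc5a7 and Mnx1 lie under the line on all arrays, Dbh above it in shGFP (5.59 to 5.99) and below it in shLuciferase (4.45 to 4.54), and Isl1 and Chrna3 show groups that do not overlap.

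All 6 cholinergic genes that differed, of 21 measured, were lower in shGFP, against 3.9% of all genes that were lower there. The share that differed was 28.6%, against 9.34% of all genes and 13.6% of those above the reference. Chrna3 was lower by a log2 difference of -0.74 (SE 0.0976, limma adjusted p = 0.00089) and Chrna7 by -0.65 (SE 0.0921, limma adjusted p = 0.0014). Chrna7 values were 9.04, 9.25, 9.31 and 9.16 in shGFP and 9.97, 9.83 and 9.72 in shLuciferase. Slc18a3 (-0.46), Chrm4 (-0.43), Chrnb2 (-0.30) and Bche also passed, but each of these 4 calls was lost under at least 1 of the alternatives, at most with an adjusted p of 0.0688, 0.106, 0.151 and 0.338 in that order. The summed linear signal of the 21 genes was 8873 to 9545 in shGFP and 11091 to 11440 in shLuciferase, and without Chrna3 it was 7365 to 7814 and 8236 to 8528. Chrna3 was left out because its linear signal differed most, which by itself shrinks the gap. The median difference over the list was -0.03. Sums of several other lists did not overlap either. Tubulins were lower in shGFP (18590 to 19404 against 20437 to 21821), and Hox genes were higher there (3024 to 3133 against 2569 to 2627). The shLuciferase line read higher for Chrna3 and Chrna7 and lower for Isl1.

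Of the 29 motor neuron factors, 4 were higher in shGFP and 2 lower, 20.7% in all against 9.34% of all genes and 13.6% of those above the reference. Tbx20 was lower, with values of 10.01, 9.93, 10.02 and 9.89 in shGFP and 10.66, 10.55 and 10.74 in shLuciferase (log2 difference -0.69, SE 0.0783, limma adjusted p = 0.00033). In the list of receptors and peptides, 4 of 30 were higher in shGFP and 1 lower, 16.7% in all against the same 9.34% and 13.6%. The GDNF co-receptor Gfra1 was higher by 0.91 (SE 0.0825, limma adjusted p = 8.7e-05) and the neurotrophin-3 receptor Ntrk3 by 0.66 (SE 0.0710, limma adjusted p = 0.00025). The groups did not overlap for either gene.

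Among sympathetic genes, 7 of 30 were higher in shGFP and 2 lower, against 5.44% and 3.9% of all genes. In all 30% differed, against 9.34% of all genes and 13.6% of those above the reference. The summed linear signal of the 30 genes was instead lower in shGFP, at 7723 to 8035 in shGFP and 8037 to 8212 in shLuciferase. The median difference over the list was 0.08. The 2 ranges of sums all but met, and lists of other kinds, such as tubulins, also had sums that did not overlap. Dbh, which turns dopamine into noradrenaline, had values of 5.59, 5.91, 5.99 and 5.61 in shGFP and 4.46, 4.45 and 4.54 in shLuciferase, a difference of 1.29 (SE 0.108, limma adjusted p = 5.3e-05). It was above the array's own reference on all 4 shGFP arrays and on none of the 3 shLuciferase arrays, so the fold was at least 1.80. Gch1, which makes the cofactor of tyrosine hydroxylase, was higher by 1.12 (SE 0.128, limma adjusted p = 0.00034). Its values were 6.43, 6.97, 6.83 and 6.90 in shGFP and 5.59, 5.84 and 5.55 in shLuciferase. Th did not pass (5.09 against 5.30, limma adjusted p = 0.21). Gata2 was lower in shGFP (difference -0.61, SE 0.0869, limma adjusted p = 0.0015), with group means of 10.28 and 10.89.

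Of 43 pan-neuronal genes, 6 were higher in shGFP and 2 lower, against 5.44% and 3.9% of all genes, and the median difference was 0.0017. In all 18.6% differed, against 9.34% of all genes and 13.6% of those above the reference. Genes of the regulated secretory granule were among those that differed. Chgb, a granin stored in dense-core granules, had values of 10.93, 11.16, 11.27 and 11.33 in shGFP and 9.88, 9.93 and 10.01 in shLuciferase (difference 1.24, SE 0.100, limma adjusted p = 4.3e-05). Scg2, another granin, was higher by 1.16 (SE 0.0933, limma adjusted p = 4.1e-05), the neuronal enolase Eno2 by 0.99 and the growth cone protein Gap43 by 0.59. The neuronal tubulin Tubb3, on 1 probe set, was lower (9.82 against 10.47, difference -0.65, SE 0.126, limma adjusted p = 0.0087). Of the 6 filament genes, Nefh and Nefm were lower in shGFP (-0.41 and -0.56), and both calls were lost under some alternatives, with limma adjusted p up to 0.547 and 0.0917.

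**Figure D4:**
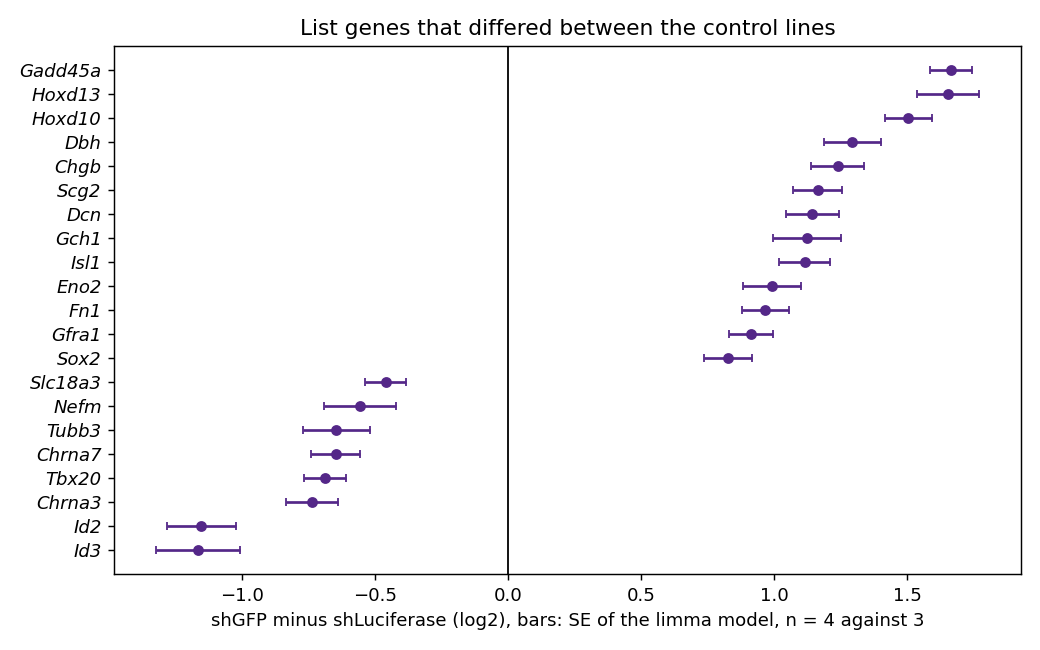
Log2 difference shGFP minus shLuciferase (horizontal axis, dot) with the SE of the limma model (bar) for 21 list genes that passed the threshold, from 4 against 3 arrays. Gadd45a (1.66) and Hoxd13 (1.65) lie farthest to the right and Id3 (-1.17) and Id2 (-1.15) farthest to the left.

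Few proliferation genes differed between the lines. Of 49 genes, 0 were higher and 2 lower in shGFP. That is a share of 4.08%, against 9.34% of all genes and 13.6% of those above the reference. These 2, E2f8 and Tyms, lost their calls under most alternatives (limma adjusted p up to 0.251 and 0.163). Differences over the list ran from -0.32 to 0.24. The summed linear signal overlapped, at 66074 to 68705 in shGFP and 65684 to 68139 in shLuciferase. By contrast Gadd45a, a stress-induced brake on the cell cycle, was 3.17-fold higher in shGFP (values 8.21, 8.42, 8.23 and 8.25 against 6.63, 6.57 and 6.64, limma adjusted p = 2.2e-06).

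Progenitor genes went both ways, with 3 of 28 higher in shGFP and 4 lower, against 5.44% and 3.9% of all genes. In all 25% differed, against 9.34% of all genes and 13.6% of those above the reference. Id2 was lower in shGFP (difference -1.15, values 9.91, 9.97, 9.86 and 9.61 against 11.24, 11.04 and 10.70, limma adjusted p = 0.0003), and so were Id3, of the same family (-1.17), and Sox9 (8.31 against 9.06, difference -0.75). Prom1 was higher in shGFP by 0.77 and Sox2 by 0.83, but with the median of the probe sets the Sox2 call was lost (limma adjusted p = 0.972, and from 1.07e-05 upward under the other alternatives). Id3, Sox2 and Prom1 had group means of 6.04 and 7.20, 5.79 and 4.97, and 7.22 and 6.45. Id3 was named after its values were seen.

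Of the 33 Hox genes 4 differed, a share of 12.1% that is near the background of 9.34% of all genes and 13.6% of those above the reference. The 4 were HoxD genes and were higher in shGFP. Hoxd10 values were 8.45, 8.29, 8.20 and 8.37 in shGFP and 6.88, 6.70 and 6.89 in shLuciferase (difference 1.50, SE 0.0878, limma adjusted p = 5.2e-06). Hoxd13 values were 7.51, 7.95, 8.03 and 7.73 against 6.15, 6.17 and 6.14 (difference 1.65, SE 0.117, limma adjusted p = 1.7e-05). Hoxd9 and Hoxd11 were higher by 0.72 and 0.45, and the Hoxd11 call was lost with the median of the probe sets (limma adjusted p = 0.916, and from 0.00169 upward under the other alternatives). Hoxc10, the highest Hox gene, did not pass (9.36 against 9.30, limma adjusted p = 0.75).

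Mesenchymal genes differed in 10 of 37 cases (27.0%, against 9.34% of all genes and 13.6% of those above the reference), 6 higher in shGFP and 4 lower. Fn1 values were 11.36, 11.39, 11.34 and 11.33 in shGFP and 10.51, 10.47 and 10.19 in shLuciferase (difference 0.97, SE 0.0883, limma adjusted p = 9.6e-05). The matrix proteoglycan decorin (Dcn) was higher by 1.14 and Ddr2 by 0.63. The summed linear signal of the 37 genes was 13597 to 13994 in shGFP and 11769 to 12355 in shLuciferase. That gap rested on Fn1 and Ddr2, which were left out because their linear signal differed most. Without them the sums were 8394 to 8849 in shGFP and 9091 to 9149 in shLuciferase, the other way round. Leaving out genes picked this way shrinks a gap by construction. Only Chrna3 was left out of the cholinergic sum, so the 2 lists cannot be compared by it. Sums of other lists did not overlap either, as given above. The median difference over the 37 genes was -0.04, against -0.01 over all genes. The microglial list summed to 586 to 627 against 545 to 610. Fn1, Ddr2 and Dcn were higher in the line in which Chgb and Scg2 were higher and Chrna3 and Tubb3 lower. Neuronal genes thus differed in both directions, and a link to these mesenchymal genes was not tested. Of the list's defining collagens, Col3a1 was under the reference and Col1a1 at 5.55. Astrocyte genes differed in 3 of 17 cases (17.6%), with Sparcl1 lower in shGFP (6.57 against 7.58, difference -1.01). None of the 16 muscle or 16 blood genes passed. Of these, 10 and 15 were not above the reference, where 1.37% of genes passed.

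The 5 largest differences each way were taken over all genes above the reference in at least 1 line. Ramp3, a partner of calcitonin-family receptors, was at least 9.88-fold higher in shGFP, with values of 8.28, 8.44, 8.18 and 8.19 against 4.40, 4.97 and 5.07 (limma adjusted p = 8.1e-07). In shLuciferase 1 of 3 arrays was above its own reference for this gene, so the fold is a lower bound, taken with each shLuciferase array at the higher of its value and its reference. Klhl4, which was under the reference on all 3 shLuciferase arrays (3.62, 3.69 and 3.74, against 5.72, 6.07, 5.87 and 5.84), was at least 1.93-fold higher on the same basis. Txnip, the thioredoxin inhibitor, was 4.92-fold higher, and the G-protein signalling regulators Rgs4 and Rgs5 4.46-fold and 3.46-fold. On the other side, Phlda2 was 4.05-fold, lipoprotein lipase (Lpl) 2.97-fold and the receptor Fgfr2 2.90-fold higher in shLuciferase. Mrfap1 and Apol9b were 2.71-fold and 2.56-fold higher there, and the Mrfap1 call, on 1 probe set, was lost under 5 alternatives.

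A few genes were above the reference in 1 line only. They were above on all 4 shGFP and on no shLuciferase array in 38 cases, 28 of which passed the threshold. The opposite pattern was found for 6 genes, of which 4 passed. The background share is 9.34%, but such genes were picked for a separation of the groups, so nothing is read from their share. Klhl4 and Dbh belonged to the first kind, and for both the shLuciferase mean was under the reference. In 13 of the 38 the shLuciferase mean was itself above the reference of 4.82.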

How the data were processed

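Per the labels' protocols, total RNA was extracted with the Qiagen RNeasy kit, amplified with the Ambion WT kit and biotin-labelled for Affymetrix arrays. The authors deposited log2 signals of 194293 probe sets. Per the submitters' processing notes, Partek and RMA were used, with no version. The background correction, the normalization settings and the genome build of the probe sets are not given in the sources consulted. In the platform annotation 179496 probe sets have 1 symbol, 1328 have several and 13469 have none; the last 2 kinds enter no gene value. Symbols can be old. Only the 7 control arrays were read; the number of arrays limits the precision.

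Gene values, control levels and the reference were computed as described above (Python 3.11.15). Lists written for motor neuron, sympathetic, glial and other cells, and families matched by symbol, were described by counts and medians. The members and lists were chosen with earlier results of these data known. The symbol patterns for the ribosomal protein, tubulin, elongation factor and initiation factor families were corrected after the files were seen.

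The control lines were compared with limma 3.58.1 (lmFit and eBayes, R 4.3.3) over 15803 genes, with Benjamini-Hochberg adjustment, a threshold of 0.05, no filter and no block. The step was tested on simulated data. The 4 markers were named, with the 30 highest genes, up to 8 highest and 4 lowest members per list, up to 4 members per list with the lowest adjusted p past the threshold, and 5 of the largest differences each way; other names are marked as chosen later. Alternatives were the median or upper quartile of probe sets, quantile normalization again, either line alone, genes with at least 3 probe sets, other references, array weights, a filter, the replicate block and leaving out each array.

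Replicate numbers 1 and 2 occur in both lines. Deviations from the group means correlated at -0.06 (number 1) and 0.26 (number 2) for arrays of the same number, and at -0.29 to 0.21 for the others, and the labels tie no number to a shared culture or day, so the numbers were not taken to pair the arrays.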

Additional observations from a re-analysis of the deposited data

Results flagged for a closer look

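Of 176 genes named in the text and 28 list medians, 8 genes and 2 medians had 1 of the 4 shGFP arrays set apart from the other 3, by a gap that was larger, relative to the whole range, than Dixon's 95% critical value. Chance gives such a gap in about 1 in 20 groups. The gap was 0.929 of the range for Prom1, 0.91 for Pcbp2, 0.859 for Hoxa6, 0.851 for Grina, 0.847 for Aldh1l1, 0.835 for Plk1, 0.834 for Chrna3 and 0.8294 for Psmb5. The array apart was shGFP 1 for Prom1 (7.02 against 7.29 to 7.31), Chrna3 (10.56 against 10.76 to 10.80), Hoxa6 (4.09) and Aldh1l1 (4.54), shGFP 2 for Pcbp2 (12.94) and Plk1 (10.52), and shGFP 5 for Grina (12.71) and Psmb5 (12.64). The gap was 0.853 for the median of the cholinergic list and 0.929 for that of the sympathetic list. In both it was shGFP 1 that read low, at 7.13 against 7.21 to 7.23 and at 6.31 against 6.63 to 6.65.

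Signal was also seen in probe sets that enter no gene value. Of 13469 probe sets with no gene symbol, 6692 (49.7%) were above 5.31, the 95th percentile of olfactory receptor probe sets, and of 1328 with several symbols, 853 (64.2%) were. The share among probe sets with 1 symbol was 66.0%.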

How the results depend on the processing

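Whether a gene is above the floor depends on where the floor is set, and the arrays give no detection calls. The count of genes above the reference of olfactory receptor genes was 10330 and ran from 8783 (99th percentile of olfactory receptor genes) to 10865 (upper quartile of probe sets). For the lists, counts that moved by over 1.5 times were 3 of the other transmitter genes, 3 epithelial and 2 blood genes with the median of probe sets, 10 other transmitter and 2 blood genes with the upper quartile, and 7 ribosomal protein genes, 5 histone genes and 7 tubulins among genes with at least 3 probe sets. With the 99th percentile, applied to the lists after seeing the data, they were 3 other transmitter, 5 oligodendrocyte and Schwann, 2 microglial, 16 mesenchymal, 2 epithelial, 2 endothelial, 1 muscle, 0 blood and 10 Hox genes; the proliferation, pan-neuronal, filament, cholinergic and motor neuron counts did not move by that much under any setting. Genes that differed between the control lines in limma numbered 1476, and 780 with the median of probe sets, 2783 with array weights, 824 with the replicate number as a block, and 855 to 1388 when 1 array was left out. The same replicate number is no evidence of pairing here, and of 81 named calls 28 were lost with the block and 26 with the median of probe sets. No call changed direction. The cause of these changes was not tested.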
